A study of Mus musculus with 14 samples.

Results

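The genes examined here encode cortistatin (Cort), its sister peptide somatostatin (Sst), the 5 somatostatin receptors (Sstr1 to Sstr5) and the ghrelin receptor (Ghsr). They were taken by symbol from the deposited expression table, which lists 46904 genes, and all 8 were found and passed the filter on low values. RNA was measured in brain hemispheres of 12-week-old Cort+/+ and Cort-/- mice on a C57BL/6J background, 48 h after middle cerebral artery occlusion (MCAO), a stroke model in which a filament blocked the artery for 20 min before reperfusion. The contralateral (CL) hemisphere was represented by 3 Cort+/+ and 3 Cort-/- libraries, and the ischemic hemisphere, called MCAO, by 3 Cort+/+ and 5 Cort-/- libraries. The Cort-/- mice come from a line deficient in the cortistatin gene, and how the gene was disrupted was not given in the sources used here. CL tissue came from mice that had also undergone surgery, so no library is from an unoperated brain. The Cort+/+ MCAO libraries are numbered 2 to 4, with no replicate 1. The authors state that, where variability was large, they kept only replicates that grouped together. Whether this shaped the Cort+/+ MCAO group was not given in the sources used here. If it did, the spreads and intervals that rest on this group may be narrower than those of unselected libraries. Each library is polyA RNA of a whole hemisphere, and the reads assigned to genes ranged from 25991114 to 43034553 per library. The authors deposited RPKM, in which a gene's reads are divided by its length in kilobases and by the depth of the library, and these values turned back into whole reads for 100% of the 495656 entries above 0.

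Cortistatin and somatostatin are short cyclic peptides cut from the end of larger precursors and released by GABAergic interneurons of the cortex and hippocampus, among other cells. Both bind all of the somatostatin receptors, which are Gi-coupled receptors that lower cAMP, open potassium channels and damp neuronal firing and hormone release. Unlike somatostatin, cortistatin also binds the ghrelin receptor, and Ghsr is best known from neurons of the hypothalamus. The question put to these data was whether any gene of the group differed between genotypes where Cort was lost, and whether any differed between hemispheres.

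The likeness of the ligands is visible in the coding sequence. The last 14 codons before the stop codon are shown for both genes, because this end of the precursor carries the mature peptide. They were read from GRCm39 with the coding exons of GENCODE M39, on the minus strand at chr4:149209724-149209765 for Cort and at chr16:23708482-23708523 for Sst. Capitals mark bases that are the same in both genes when the Sst sequence is shifted by 1 codon.
Cort: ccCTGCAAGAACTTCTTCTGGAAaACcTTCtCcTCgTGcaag
Sst: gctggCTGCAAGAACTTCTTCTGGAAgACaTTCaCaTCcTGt
Of 39 aligned bases, 31 were identical (79.5%), and the longest identical run was 21 bases.

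RefSeq promoter windows (250 bases before to 50 bases after the start, table of build GRCm38.p6) were found for 6 of the 8 genes. Each window had 1 exact match in GRCm39, from which the coordinates are given. The cAMP response element TGACGTCA, a palindrome and so the same on both strands, occurred in the windows of Sst and Sstr2 and in 1.80% of 32544 mouse promoters. The shorter letters TGACG, searched on both strands and contained in every full element, were present without the full element in the Cort window and in 1 of the 2 windows of Sstr3 (9 bases before its start). Counted with or without the full element, they occurred in 20.9% of promoters. The 80 bases just before each start are printed for both ligand genes and Sstr2 to show where the letters lie, with the matches in capitals. The windows are at chr4:149211221-149211300 on the minus strand for Cort, chr16:23709595-23709674 on the minus strand for Sst and chr11:113510073-113510152 on the plus strand for Sstr2.
Cort: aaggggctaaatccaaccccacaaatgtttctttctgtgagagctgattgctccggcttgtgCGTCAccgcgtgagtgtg
Sst: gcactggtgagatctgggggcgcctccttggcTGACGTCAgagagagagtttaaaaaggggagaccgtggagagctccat
Sstr2: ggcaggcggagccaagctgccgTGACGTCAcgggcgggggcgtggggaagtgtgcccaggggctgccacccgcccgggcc
The first base of the full element lies 48 bases before the start of Sst and 58 bases before that of Sstr2, and the CGTCA of Cort, which is TGACG on the other strand, lies 18 bases before its start. These starts are those of RefSeq. The GENCODE M39 spans given below for Cort and Sst begin farther upstream, so the matches of these genes lie inside those spans. A match of letters is a description of the window and says nothing of what binds there.

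Cort, at chr4:149209491-149211266 on the minus strand of GRCm39, was the gene that separated the genotypes. The 3 Cort+/+ CL libraries held 2.61, 5.68 and 5.50 RPKM (64, 133 and 139 reads), and the 3 Cort+/+ MCAO libraries held 4.44, 3.36 and 3.86 RPKM (108, 93 and 81 reads). Among Cort-/- CL libraries, 1 held a single read (0.0444 RPKM) and the others held none. The 5 Cort-/- MCAO libraries held 0, 4, 1, 0 and 1 reads, at most 0.136 RPKM. No Cort-/- library came near a Cort+/+ library of either hemisphere, and the genotype labels therefore fit the targeted gene in all 14 libraries.

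Set against the Cort+/+ libraries of the same hemisphere, the pooled Cort reads per library size of Cort-/- mice came to 0.322% in CL (95% exact interval 0.00812% to 1.80%, from 1 read against 336) and to 1.18% in MCAO (0.431% to 2.61%, from 6 reads against 282). Without Cort-/- MCAO replicate 2, the library with 4 of those 6 reads, the MCAO value was 0.509% (0.0614% to 1.86%). These intervals cover counting error only. In limma, on log2(RPKM + 0.1), the difference was -5.30 in CL (adjusted p = 3.82e-05) and -4.84 in MCAO (adjusted p = 5.89e-05), where the size depends on the added 0.1. Within each of these comparisons, Cort was the only one of the 8 genes called at an adjusted p under 0.05, against 0.0152% of the 46102 genes tested in CL and 0.0174% in MCAO. It was also the only one whose genotype groups did not overlap, in CL (6.25% of genes tested) and in MCAO (2.42%). With the hemispheres combined, it was called alone again (adjusted p = 9.28e-07, 0.0672% of genes called). An exact two-sided permutation of genotype within each hemisphere gave p = 0.000893 for Cort, the smallest that its 1120 splits allow.

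**Figure D1:**
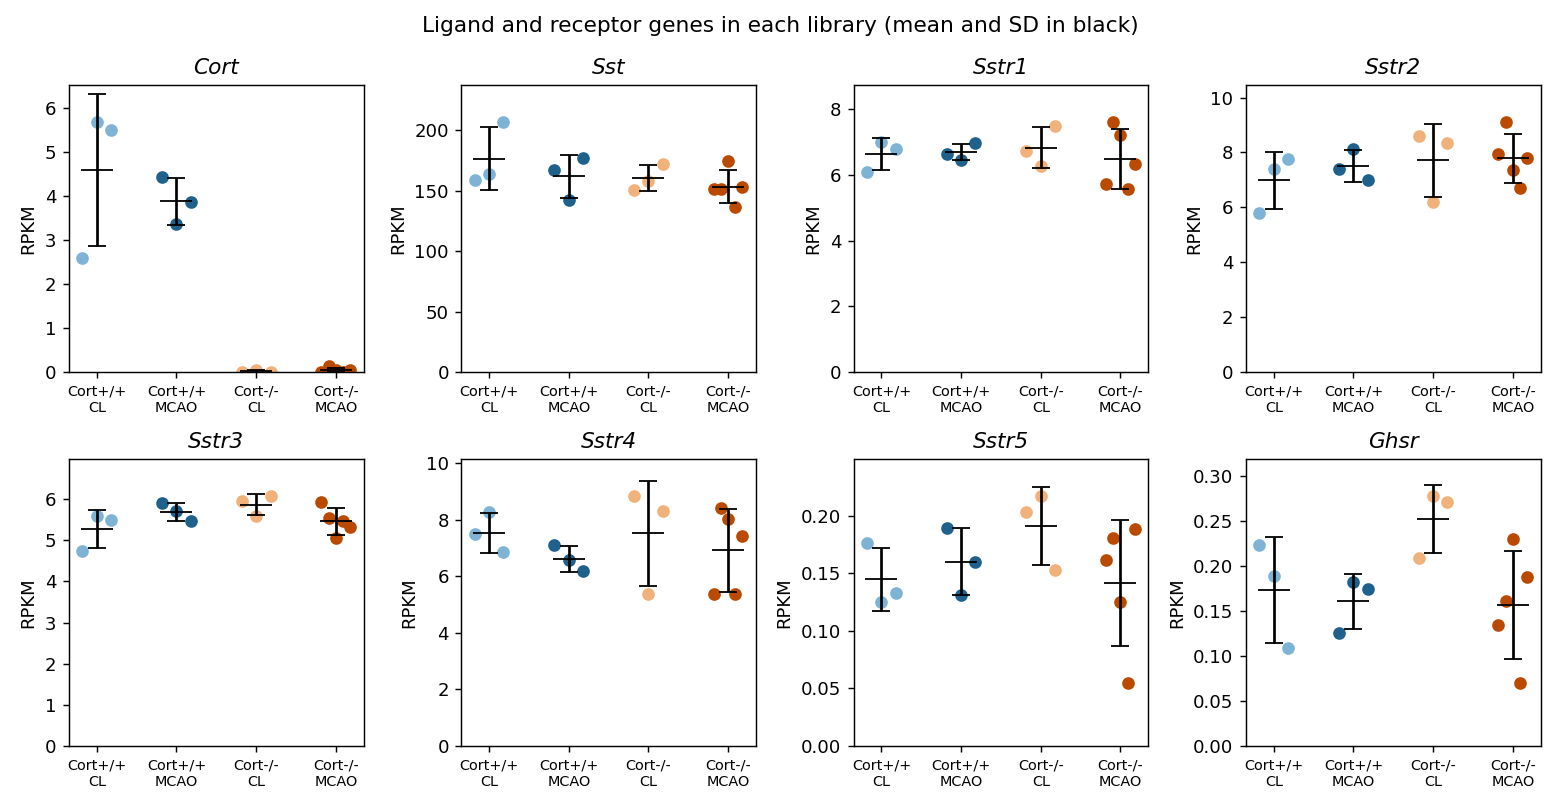
RPKM of each of the 8 genes (vertical axes, each starting at 0) in the 4 groups of genotype and hemisphere, with 1 point per library and the group mean and SD in black. Cort is near 0 in all 8 Cort-/- libraries, while the groups of every other gene overlap between genotypes.

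Sst, at chr16:23707321-23711733 on the minus strand, was the more abundant ligand by far. It measured 159, 164 and 206 RPKM in Cort+/+ CL, 167, 142 and 177 in Cort+/+ MCAO, and 150, 158 and 172 in Cort-/- CL libraries. The 5 Cort-/- MCAO libraries held 151, 151, 175, 136 and 153 RPKM. The highest library was Cort+/+ CL replicate 3 and the lowest Cort-/- MCAO replicate 4, and all 4 groups overlapped. With at least 3326 Sst reads in every library, counting error was small (a coefficient of variation of 1.54% over the 14 libraries against 10.8% measured), so the spread is mostly not that of counting.

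Within the 6 Cort+/+ libraries Cort made up 2.43% ± 0.577 (SD, n = 6) of the summed RPKM of the 2 ligands, from 1.61% to 3.35%. Sst was 28.9 to 61.0 times as high as Cort in the same library. The share and this ratio rest on the gene lengths behind RPKM. These were 677 bases for Cort and 721 for Sst, whereas GENCODE M39 gives 723 and 3628 bases. At the longer Sst length, the same reads would give a lower ratio and a higher share of Cort. In Cort-/- mice the ligand sum was 156 ± 12.4 RPKM (SD, n = 8), beside 173 ± 22.2 RPKM (SD, n = 6) in Cort+/+ mice, and the ranges overlapped.

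The levels of Sst did not rise to a measurable degree where Cort was lost. In Cort-/- relative to Cort+/+ mice, over both hemispheres, the Sst difference was -6.98% (95% limma interval -16.8% to 4.03%, adjusted p = 1). It was -8.68% in CL (-22.7% to 7.88%) and -5.24% in MCAO (-18.4% to 9.99%). In RPKM, replacing the lost Cort transcript would take little: mean Cort expression in Cort+/+ mice was 4.24 RPKM, or 2.51% of that of Sst. The fitted Sst change over both hemispheres was -11.7 RPKM, with an interval from -28.3 to 6.77 RPKM. An increase as large as the Cort level therefore lies inside the interval, while an increase above 6.77 RPKM lies outside it. These values lean on Cort+/+ CL replicate 3, the library with the highest Sst. Without it, the difference was -3.09% over both hemispheres (-12.4% to 7.18%) and -0.899% in CL (-15.3% to 16.0%). A gain of that small size was not detectable with these libraries.

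The receptor genes fell into 4 that were well expressed and 2 that were scarce. Over all 14 libraries, mean expression was 7.54 ± 0.911 RPKM for Sstr2, 7.12 ± 1.21 for Sstr4, 6.64 ± 0.613 for Sstr1 and 5.56 ± 0.366 for Sstr3 (SD, n = 14). Ghsr measured 0.182 ± 0.0595 RPKM and Sstr5 0.157 ± 0.0418 RPKM (SD, n = 14). Every one of the 4 abundant receptors exceeded both scarce ones in 14 of 14 libraries. Neighbours in this order were less clear: Sstr2 was above Sstr4 in 10 of 14 libraries, Sstr4 above Sstr1 in 10, Sstr1 above Sstr3 in 13 and Ghsr above Sstr5 in 9, and the SDs of Sstr2, Sstr4 and Sstr1 overlap.

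Because RPKM divides by gene length, the order also rests on the gene model. Lengths recovered from the values were 4275 bases for Sstr3, 2143 for Sstr2, 1752 for Sstr1 and 1424 for Sstr4, whereas GENCODE M39 gives 6530, 2174, 3967 and 6045 bases. In reads not divided by length, Sstr3 came first with 37.7% of the reads of the 6 receptors, and Sstr4, with 16.0%, came after Sstr2 (25.5%) and Sstr1 (18.4%). Differences of 1 gene between groups are free of this, since its length is the same in every library. Overlapping genes are a further limit on levels. Sstr2 lies wholly inside the span of Slc39a11 and Sstr4 inside that of Thbd, both on the opposite strand, and Sstr5 overlaps the lncRNA genes Gm63608 on its own and Gm33727 on the opposite strand. The library kit keeps strand, but the strand setting used in counting was not given in the sources used here.

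The make-up of the receptor pool varied least for Sstr1 relative to its share and most for the scarce genes. In percent of the summed RPKM of the 6 receptor genes, Sstr2 had 27.7 ± 1.98, Sstr4 26.1 ± 2.78, Sstr1 24.5 ± 1.32 and Sstr3 20.6 ± 1.89 (SD, n = 14), with 0.670 ± 0.226 for Ghsr and 0.579 ± 0.163 for Sstr5. Single libraries ran from 21.2% to 30.5% for Sstr4, from 0.303% to 1.16% for Ghsr and from 0.234% to 0.909% for Sstr5. The summed level was 26.8 ± 2.06 RPKM in Cort+/+ CL (SD, n = 3), 26.8 ± 0.789 in Cort+/+ MCAO (SD, n = 3), 28.4 ± 3.87 in Cort-/- CL (SD, n = 3) and 23.2 to 31.0 RPKM, with a median of 27.3, in the 5 Cort-/- MCAO hemispheres. All 4 groups overlapped.

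**Figure D2:**
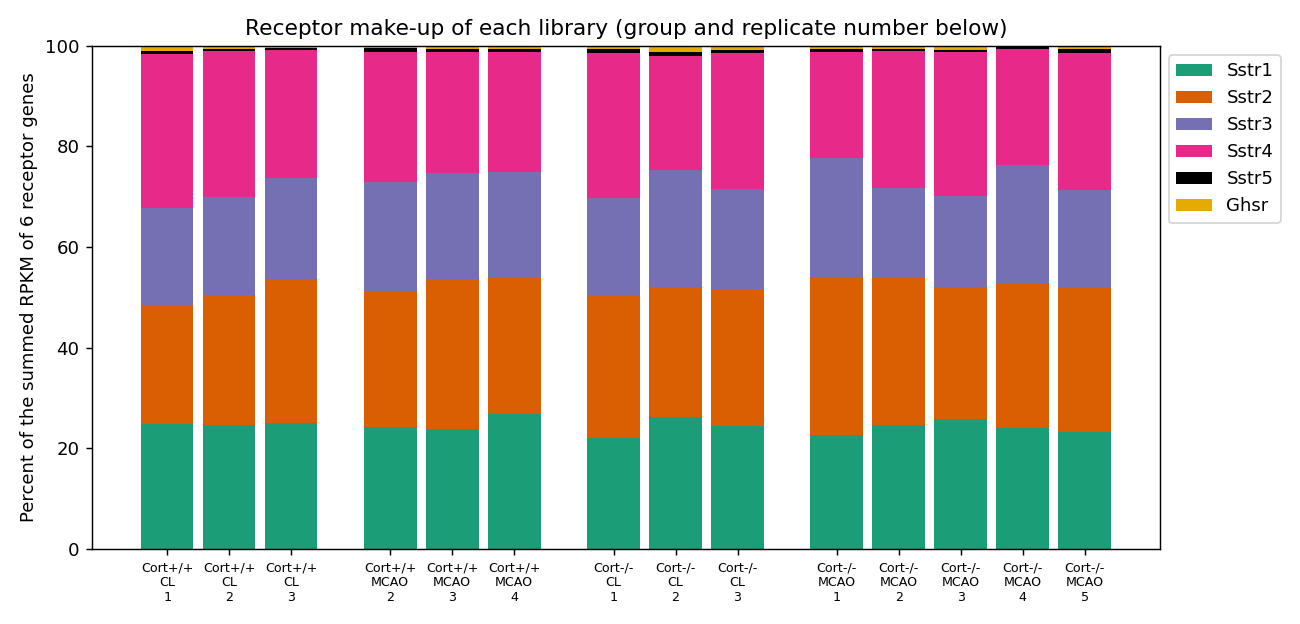
Percent of the summed RPKM of 6 receptor genes (vertical axis) in each of the 14 libraries, grouped by genotype and hemisphere, with the replicate number below each bar. Sstr1 to Sstr4 fill nearly the whole bar in every library, while Sstr5 reaches at most 0.909% and Ghsr at most 1.16%.

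Sstr1, at chr12:58258494-58262824 on the plus strand, encodes a receptor found on axons and on somatostatin neurons themselves. Its levels were 6.10, 7.01 and 6.81 RPKM in Cort+/+ CL, 6.65, 6.47 and 6.97 in Cort+/+ MCAO and 6.74, 6.26 and 7.51 in Cort-/- CL libraries. Cort-/- MCAO libraries held 5.72, 7.61, 7.24, 5.56 and 6.34 RPKM, a range that encloses all 3 Cort+/+ MCAO values. Over both hemispheres the genotype difference was -0.50% (95% interval -11.2% to 11.5%).

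Sstr2, at chr11:113510145-113516862 on the plus strand, encodes the receptor that mediates most of the effect of clinical somatostatin analogues. It measured 5.80, 7.41 and 7.75 RPKM in Cort+/+ CL and 7.40, 8.13 and 6.98 in Cort+/+ MCAO libraries. In Cort-/- mice it measured 8.61, 6.19 and 8.34 RPKM in CL and 7.94, 9.10, 7.36, 6.69 and 7.80 in MCAO libraries. The lowest values in CL were those of Cort+/+ replicate 1 and Cort-/- replicate 2, and the highest of all was a Cort-/- MCAO library. The genotype difference over both hemispheres was 6.60% (95% interval -7.53% to 22.9%). On the log2 scale this was 0.09, and it ran from 0.03 to 0.17 when 1 library was left out.

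Sstr3, at chr15:78421208-78428886 on the minus strand, encodes a receptor of neuronal primary cilia and varied least. Cort+/+ libraries held 4.73, 5.59 and 5.49 RPKM in CL and 5.91, 5.72 and 5.46 in MCAO, and Cort-/- libraries 5.95, 5.58 and 6.08 in CL and 5.94, 5.55, 5.05, 5.47 and 5.32 in MCAO. In CL, Cort-/- libraries were higher by 11.4% (95% interval -0.54% to 24.7%, limma adjusted p = 1). In MCAO hemispheres the sign was opposite, at -4.09% (-13.3% to 6.10%). With both hemispheres together the difference was 3.34% (-4.20% to 11.5%). Leaving out 1 library moved the log2 difference in CL from 0.16 to between 0.08 and 0.20. In MCAO it moved from -0.06 to between -0.09 and -0.03, and over both from 0.05 to between 0.01 and 0.07.

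Sstr4, at chr2:148236836-148243025 on the plus strand, encodes a receptor of cortical and hippocampal neurons. Its levels were 7.49, 8.26 and 6.87 RPKM in Cort+/+ CL and 7.11, 6.59 and 6.19 in Cort+/+ MCAO libraries. Cort-/- libraries held 8.84, 5.38 and 8.33 RPKM in CL and 5.36, 8.42, 8.03, 5.36 and 7.44 in MCAO. The 3 lowest libraries of the series (Cort-/- CL replicate 2 and Cort-/- MCAO replicates 1 and 4) thus belonged to both hemispheres of Cort-/- mice. Its coefficient of variation was 21.3% among the 8 Cort-/- and 10.3% among the 6 Cort+/+ libraries, a difference in spread that was not tested. The Cort+/+ value includes the MCAO libraries that may have been selected for likeness, as said above. The injury genes of the 3 lowest libraries are given below. The genotype difference in level was 0.14% (95% interval -18.1% to 22.4%).

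The scarce receptors rested on few reads. Sstr5, at chr17:25708847-25733577 on the minus strand, encodes a receptor best known from the pituitary. Its levels were 0.176, 0.125 and 0.133 RPKM in Cort+/+ CL, 0.190, 0.132 and 0.160 in Cort+/+ MCAO, and 0.204, 0.217 and 0.153 in Cort-/- CL libraries. In Cort-/- MCAO hemispheres it measured 0.161, 0.181, 0.125, 0.0544 and 0.189 RPKM. These are 11 to 38 reads per library, and counting alone gives a coefficient of variation of 19.0% beside the 26.6% measured. On the log2(RPKM + 0.1) scale, which understates changes at this level, the genotype difference was 4.07% (95% interval -19.0% to 33.7%). As a log2 difference it was 0.06, and 0.02 to 0.13 when 1 library was left out.

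Ghsr, at chr3:27425356-27433382 on the plus strand, held 0.224, 0.189 and 0.109 RPKM in Cort+/+ CL, 0.125, 0.182 and 0.175 in Cort+/+ MCAO, and 0.209, 0.278 and 0.272 in Cort-/- CL libraries. In Cort-/- MCAO hemispheres it measured 0.135, 0.161, 0.230, 0.0702 and 0.188 RPKM. With 13 to 41 reads per library, its genotype difference over both hemispheres was 12.3% (95% interval -14.0% to 46.7%), and in CL it was 30.5% (-12.4% to 94.4%). Leaving out 1 library moved the log2 difference over both hemispheres from 0.17 to between 0.08 and 0.24. The CL difference moved from 0.38 to between 0.20 and 0.52. The Cort-/- CL libraries were high on average but overlapped the Cort+/+ CL libraries. In the same comparison, where 0.0152% of genes tested were called, 0 of 11 hypothalamic neuron markers were called. Of those 11, 10 had positive differences. The median log2 difference of the 11 was 0.28, beside 0.00 over all genes tested.

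None of the 7 genes other than Cort was called between genotypes, in CL, in MCAO or over both, and their adjusted p-values were all 1. The exact permutation of genotype within hemispheres gave p-values from 0.221 (Sst) to 0.988 (Sstr4) for them. The size of rise that lies outside the interval differs from gene to gene. Over both hemispheres, at 95%, a rise in Cort-/- mice above 11.5% lies outside the interval for Sstr1 and for Sstr3, and one above 22.9% for Sstr2 and 22.4% for Sstr4. For Sstr5 and Ghsr the upper ends, 33.7% and 46.7%, are changes of RPKM + 0.1 and stand for larger percent rises of RPKM itself. In CL alone the upper ends were higher, at 21.7% for Sstr1, 35.9% for Sstr2, 24.7% for Sstr3 and 31.8% for Sstr4. They also depend on 2 CL libraries with high injury genes, described below. Without those 2, the Sstr4 end went from 0.40 to 0.65 on the log2 scale in CL. Over both hemispheres it went from 0.29 to 0.40. The Sstr1 end in CL also rose, from 0.28 to 0.34, and those of Sstr2 and Sstr3 fell. All of these are ends of intervals and not the smallest rise that would be called at an adjusted p under 0.05, which was not computed. Differences inside the intervals, in either direction, were not resolved with these libraries. In whole-hemisphere RNA, fewer cells that express a gene and less RNA per cell cannot be told apart.

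**Figure D3:**
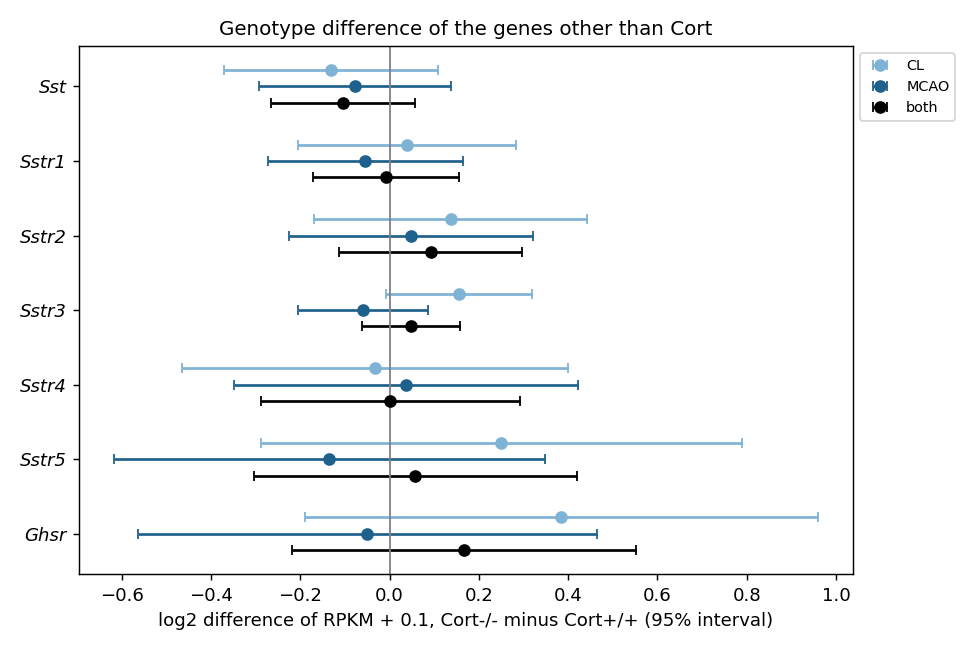
Difference between genotypes (horizontal axis, log2 of RPKM + 0.1, Cort-/- minus Cort+/+) for the 7 genes other than Cort, as points with 95% limma intervals in CL, in MCAO and over both hemispheres. Every interval includes 0, and the widest belong to Sstr5 and Ghsr.

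The hemispheres were compared within each genotype and over both. Between MCAO and CL hemispheres, 0 of the 8 genes were called in Cort+/+ mice (0.0108% of genes tested were called), 0 in Cort-/- mice (1.72%) and 0 over both genotypes (3.43%). At an unadjusted limma p under 0.05 the count of members was also 0 in each, beside 7.87% of genes tested in Cort+/+ mice, 12.7% in Cort-/- mice and 14.9% over both genotypes. Limma voom on the recovered reads called 0 as well. In Cort+/+ mice Cort itself changed by -10.7% from CL to MCAO (95% interval -47.6% to 52.1%, adjusted p = 0.967), which is a wide interval. In Cort-/- mice both hemispheres were at a few reads at most, so no fold is given.

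Over both genotypes, the MCAO hemisphere differed from CL by -6.21% for Sst (95% interval -16.1% to 4.89%), -2.28% for Sstr1 (-12.8% to 9.46%), 4.58% for Sstr2 (-9.28% to 20.6%) and 0.37% for Sstr3 (-6.95% to 8.27%). For Sstr4 it was -9.67% (-26.1% to 10.4%), for Sstr5 -6.94% (-27.6% to 19.5%) and for Ghsr -17.1% (-36.5% to 8.31%), where the values of the latter pair again understate the change of RPKM itself. The Sst value was -2.29% without Cort+/+ CL replicate 3 and -3.24% without Cort+/+ MCAO replicate 3. Exact permutation of hemisphere within genotype gave p-values from 0.111 (Ghsr) to 0.934 (Sstr3) for these 7 genes.

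Ghsr had the largest of these differences in Cort-/- mice, -28.7% from CL to MCAO (95% interval -50.0% to 1.87%, limma adjusted p = 0.427). Without the damping by the added 0.1, voom on the recovered reads gave a log2 difference of -0.81 (limma voom, adjusted p = 0.215). In Cort+/+ mice the limma difference was -3.63% (-35.3% to 43.5%), and it ran from -15.2% without CL replicate 3 to 5.65% without CL replicate 1. Between hemispheres, 0.0108% of genes tested were called in Cort+/+ mice and 1.72% in Cort-/- mice. Of 11 hypothalamic neuron markers, such as Avp, Oxt, Pmch and Hcrt, 0 were called in either genotype. Their median log2 difference was -0.41 in Cort-/- mice, with 1 of 11 positive, and 0.19 in Cort+/+ mice, with 10 of 11 positive. Their summed RPKM ran from 93.2 to 139 in Cort-/- CL, 37.3 to 103 in Cort-/- MCAO, 52.5 to 103 in Cort+/+ CL and 94.3 to 126 in Cort+/+ MCAO libraries, and none of the 11 was at 0 in any library. Cort-/- MCAO replicate 4, with the lowest Ghsr (0.0702 RPKM) and the lowest Sstr5 (0.0544 RPKM), had the lowest marker sum (37.3 RPKM). Cort+/+ CL replicate 3, with the next lowest Ghsr (0.109 RPKM), had the next lowest sum (52.5 RPKM), and Cort-/- CL replicate 2 had the highest Ghsr (0.278 RPKM) and the highest sum (139 RPKM). Between these extremes the order was not kept: Cort+/+ MCAO replicate 4, with the second highest sum (126 RPKM), held 0.175 RPKM of Ghsr, Cort-/- MCAO replicate 1 held 0.135 at a sum of 103 RPKM and Cort-/- MCAO replicate 3 held 0.230 at 93.6 RPKM. The part of these neurons in the Ghsr and Sstr5 values was not tested. Markers of the pituitary, 7 of 8 of them in the table, summed to at most 2.57 RPKM in any library.

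**Figure D4:**
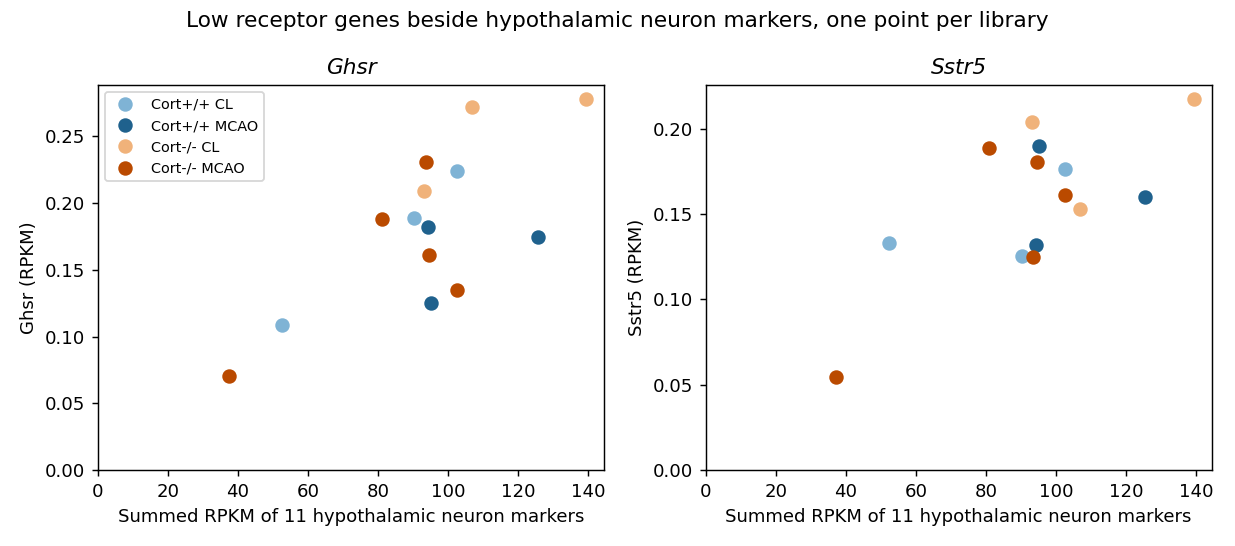
RPKM of Ghsr (left) and Sstr5 (right) on the vertical axes against the summed RPKM of 11 hypothalamic neuron markers, with 1 point per library coloured by group. The library with the lowest marker sum (37.3 RPKM) has the lowest value of both receptor genes.

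The response to MCAO was also compared between genotypes, as an interaction contrast. Again 0 of the 8 genes were called (0.00217% of genes tested), and 0 had an unadjusted limma p under 0.05 (3.31% of genes tested). The closest to that threshold was Sstr3, whose hemisphere difference was 8.15% in Cort+/+ mice (95% interval -3.40% to 21.1%) and -6.85% in Cort-/- mice (-15.8% to 3.05%), an interaction of -0.22 on the log2 scale (-0.43 to 0.00, limma adjusted p = 1). For Sstr5 the interaction was -0.38 (-1.11 to 0.34) and for Ghsr -0.43 (-1.20 to 0.34). For Sst (0.05), Sstr1 (-0.09), Sstr2 (-0.09) and Sstr4 (0.07) it was smaller.

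**Figure D5:**
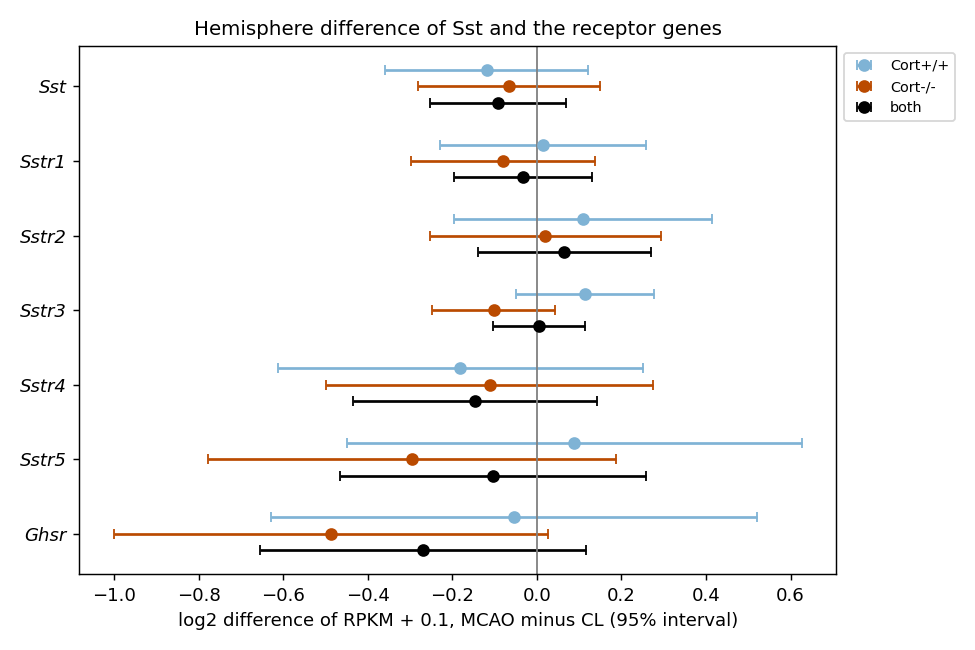
Difference between hemispheres (horizontal axis, log2 of RPKM + 0.1, MCAO minus CL) for Sst and the 6 receptor genes, as points with 95% limma intervals in Cort+/+ mice, in Cort-/- mice and over both. All intervals include 0, and the point farthest from 0 is that of Ghsr in Cort-/- mice, at -0.49.

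The same hemispheres did differ in other cell markers. All 8 striatal neuron markers were called lower over both genotypes (median log2 difference -0.80), among them the dopamine receptor gene Drd1 (-0.69, limma, adjusted p = 0.00237). All 8 microglia and macrophage markers were higher, 7 of them called (median 0.90). All 12 injury genes were higher, 10 of them called (median 2.00). The median over all genes tested was 0.00. Beside the 3.43% of all genes called, 0 of 18 GABAergic interneuron markers were called (median -0.06), among them Gad1 (-0.10) and Slc32a1 (-0.20), which serve GABA synthesis and storage, and 0 of 8 pan-neuronal markers were called (median -0.10). At an unadjusted limma p under 0.05, the counts were 3 of 18 and 3 of 8, beside 14.9% of all genes. Somatostatin is made by a class of these interneurons, and the Sst difference (-0.09) was of the size of these medians. Of 7 glutamatergic neuron markers, 2 were called lower (median -0.15), beside the 3.43% of all genes called. Of the same 7, 3 had an unadjusted limma p under 0.05. Between genotypes, over both hemispheres, 0 genes of any of these lists were called, where 0.0672% of genes tested were.

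Genes that act with the receptors were examined as lists. Ghrelin itself (Ghrl) had a mean of 0.0893 RPKM and Mboat4, which acylates it, 0.116 RPKM, and none of the 6 related ligands and binding partners in the table was called in any comparison. Of 11 genes for peptide processing and breakdown, 0 were called in any comparison, including carboxypeptidase E (Cpe, mean 877 RPKM) and the prohormone convertase gene Pcsk2 (81.4 RPKM), which trim neuropeptide precursors. Of all genes tested, 0.00217% were called for the interaction and up to 3.43% in the other comparisons. A count of 0 in lists this short therefore says little about their genes. Of 32 genes of receptor signalling (Gi proteins, adenylyl cyclases, potassium channels, phosphatases, kinases and RGS proteins), 0 were called between genotypes. From CL to MCAO over both genotypes, 2 were called higher and 2 lower, where 3.43% of all genes were called. Of the 32, 7 had positive differences there, and the median log2 difference was -0.07, beside 0.00 over all genes tested. In that comparison 13 of these 32 genes, 4 of the 11 processing genes and 2 of the 6 ligands and partners had an unadjusted limma p under 0.05, beside 14.9% of all genes. Those called higher were the phosphatase gene Ptpn6 (log2 difference 1.26, limma, adjusted p = 0.00475), which is also abundant in blood-derived cells and microglia, and the Gi subunit gene Gnai2 (0.23, adjusted p = 0.0181). Those called lower were the striatal adenylyl cyclase gene Adcy5 (-0.51, adjusted p = 0.00577) and the receptor kinase gene Grk2 (-0.09, adjusted p = 0.0438). Beside Ptpn6 and Adcy5 stand the microglia and striatal markers above, and their part in these values was not tested.

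Libraries that stood apart in injury touch some of the levels above. The summed RPKM of the 12 injury genes was 250.2 in Cort+/+ CL replicate 1 and 218 in Cort-/- CL replicate 2, beside 80.3 to 102 in the other CL libraries and 243 to 1007 in MCAO libraries. Those 2 CL libraries were the lowest of their groups for Sstr1, Sstr2 and Sstr3. Left out together, they moved the Sstr2 difference between hemispheres over both genotypes from 0.06 to -0.07, that of Sstr4 from -0.15 to -0.26, that of Sst from -0.09 to -0.13, that of Sstr1 from -0.03 to -0.09 and that of Sstr3 from 0.01 to -0.05 on the log2 scale. Those of Sstr5 and Ghsr moved the other way, from -0.10 to -0.03 and from -0.27 to -0.18. The intervals then reached down to -0.32 for Sst, -0.28 for Sstr1 and -0.54 for Sstr4, all 7 still included 0, and Cort remained the only one of the 8 genes called between genotypes. Cort-/- MCAO replicate 4 had the highest injury sum (1007 RPKM) and the lowest Sst, Sstr1, Sstr2, Sstr5 and Ghsr of its group. Without it, the Ghsr difference between hemispheres in Cort-/- mice was -0.35 on the log2 scale, beside -0.49 with all libraries. The libraries lowest in Sstr4 were Cort-/- CL replicate 2 and Cort-/- MCAO replicates 1 and 4. The injury sum of that MCAO replicate 1 was 870 RPKM, beside 322 to 614 in Cort-/- MCAO replicates 2, 3 and 5. Cort+/+ CL replicate 1 and Cort+/+ MCAO replicate 3 (759 RPKM), the highest of their groups in injury, were not the lowest in Sstr4. The part of injury in the Sstr4 spread was not tested. Without Cort+/+ CL replicate 1, which held the fewest Cort reads of its genotype, the Cort difference between hemispheres in Cort+/+ mice moved from -0.16 to -0.52 and was still not called. Leaving out other single libraries moved the same difference up to 0.03, also without a call.

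Which genes ran most closely with each member was found by Pearson's r of log2(RPKM + 0.1) over the 14 libraries, among the 15062 genes whose mean reached 1 RPKM. The libraries share composition and depth, so the values describe likeness only. Among the genes closest to Sst were 2310061I04Rik (r = 0.923) and Bmerb1 (0.913). Sstr1 and Sstr4 had the same nearest gene, Gm21986 (0.907 and 0.918), followed by Map1b (0.903) and Btrc (0.889) for Sstr1 and by Slc4a8 (0.915) and Ank2 (0.912) for Sstr4. The Sstr1 and Sstr4 values themselves had r = 0.746, the highest of any pair among Sst and the receptors. Sstr2 was nearest to Jup (0.897), Ier5 (0.886) and Fads3 (0.869), and Sstr3 less closely to Gm49343 (0.792), Zfp511 (0.779) and Comtd1 (0.763). For Cort, over the 6 Cort+/+ libraries, the nearest were ENSMUSG00000137951 (0.997), Nmt2 (0.995) and Srsf10 (0.995), where so few libraries give high values for many genes. Sstr5 and Ghsr, below the minimum of 0.5 RPKM, were left out of this search, and their r with each other was 0.586.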

How the data were processed

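PolyA RNA of 14 brain hemispheres was sequenced by the authors, processed with reanalyzerGSE v3.0.0 on GRCm39 and GENCODE M28, and deposited as RPKM values per library, without pooling. Library sizes and gene lengths that turn the deposited values into whole reads (tolerance 0.01 read) were searched for. Gene coordinates are those of GENCODE M39.

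Those 46102 of 46904 genes that exceeded 0 in 2 or more libraries were fitted as log2(RPKM + 0.1) in 1 limma model of the 4 groups, with moderated variances and trend. Genes were called at a Benjamini-Hochberg adjusted p under 0.05 over all genes tested. Percent changes are the limma differences turned into folds of RPKM + 0.1. The limma fit was checked on simulated data. The labels give separate samples but do not say whether CL and MCAO libraries came from the same animals.

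Named genes are the 8 members, at most 4 genes per list (those called, by adjusted p, otherwise the most abundant) and the 3 genes most like each member, of which 1 is not reported here. Members and lists were chosen with earlier results of these data known. A few listed markers were named as examples only. Alternatives were other pseudocounts, filters, scalings, weights, replicate blocks, voom on recovered reads and leaving out libraries, of which leaving out 2 CL libraries together was chosen after seeing the data. The fits ran in limma 3.58.1 (R 4.3.3), the other steps in Python 3.11.15 (pandas 2.3.3, scipy 1.17.1, numpy 2.4.6), and plots in matplotlib 3.10.9.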

Additional observations from a re-analysis of the deposited data

How the results depend on the processing

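Each log2 difference of the 8 genes and each count of genes called among them (63 results) was recomputed under the alternatives, which gave 1676 values. None crossed the threshold of adjusted p = 0.05 in either direction. Cort was called between genotypes in CL, in MCAO and over both hemispheres under every alternative run, with a log2 difference over both hemispheres from -7.39 to -2.31, the extremes coming with the other pseudocounts (0.01 and 1). Among values never called, 74 changed sign. Sstr5 and Ghsr have no value under the filter of a mean of 0.5 RPKM, and a fit of only the groups compared was not run for contrasts that use all groups.

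The receptor make-up depended on division by gene length. In reads without it, the shares were 18.4% for Sstr1, 25.5% for Sstr2, 37.7% for Sstr3, 16.0% for Sstr4, 1.20% for Sstr5 and 1.28% for Ghsr. With 1 library left out, the share of Cort in the ligand sum of Cort+/+ mice ran from 2.25% to 2.60%. Mean Cort in Cort-/- libraries was 0.0344 RPKM, and without MCAO replicate 2, which held 4 of the 7 reads, it was 0.0198 RPKM.

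Same-numbered libraries were mostly not alike. Of 5 same-numbered pairs of 1 genotype, 1 had correlated deviations over 0.1 (r from -0.239 to 0.316). Only Cort+/+ CL replicate 2 correlated best with its own number, and differently numbered pairs reached 0.404. These values cannot show whether CL and MCAO libraries came from the same animals, under the same or other numbers. The main fit and the permutations treated the libraries as independent and would not account for shared animals. With the replicate block as a term, Cort over both hemispheres was -5.00 (limma, adjusted p = 3.86e-05) and Sst -0.09, and no call among the 8 genes changed. The block cut the genes called over all tested from 792 to 0 between hemispheres of Cort-/- mice and from 1579 to 238 over both genotypes. Other alternatives reached 1294 in Cort-/- mice (voom), or 133 without Cort-/- CL replicate 1, and 2180 over both genotypes (mean of at least 0.5 RPKM), or 941 without Cort+/+ MCAO replicate 3. In Cort+/+ mice the count moved from 5 to between 1 and 57, and to 160 without Cort+/+ MCAO replicate 4. Between genotypes the counts ran from 2 to 43 in CL (7 in the fit reported), 4 to 40 in MCAO (8) and 8 to 49 over both hemispheres (31). For the interaction they ran from 0 to 18 (1), with 16 without Cort+/+ MCAO replicate 4.

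Sstr5 and Ghsr rest on 11 to 41 reads per library, and Cort in Cort-/- libraries on 0 to 4.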
